A study of Mus musculus with 16 samples.

Results

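The AP-1 family factors of naive CD4+ T cells were followed in an experiment on CD28 costimulation with and without Dec1. They comprise 10 genes: the FOS proteins Fos, Fosb, Fosl1 and Fosl2, the JUN proteins Jun, Junb and Jund, and the related factors Batf, Batf3 and Atf3. The list was fixed by gene name, and each gene was read from the array probe that carries its symbol alone. All 10 have 1 such probe, and all 10 are among the 16427 genes tested.

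The cells were CD4+CD62LhiCD25- T cells sorted from spleen and lymph nodes of B6 mice. Dec1, encoded by Bhlhe40, is a basic helix-loop-helix repressor. The 4 groups were KO_CD3CD28 (DEC1 knock-out cells with anti-CD3 plus anti-CD28), KO_CD3 (DEC1 knock-out cells with anti-CD3), WT_CD3CD28 (Wild-Type cells with both antibodies) and WT_CD3 (Wild-Type cells with anti-CD3). Each group had 4 arrays, and all cells were kept for 24 h with antibody-coated latex beads in DMEM plus 10% serum, at a density of 1000000 cells per ml. No unstimulated group was analysed here. The labels do not give the age of the mice, the deleted part of the gene or whether replicates 1 to 4 are separate animals, so each p-value below refers to variation between the arrays at hand, which may be technical in part.

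AP-1 is a dimer of basic leucine zipper proteins that binds DNA at the sequence TGACTCA. In T cells, receptor signals through Ras, ERK and JNK raise and phosphorylate Fos and Jun proteins, and the dimers bind together with NFAT at composite sites of cytokine genes such as Il2. BATF proteins have no activation domain of their own, pair with JUN proteins and bind with IRF4 or IRF8, while Atf3 is a stress-induced factor of the ATF branch. Fos and Jun are immediate early genes whose transcripts peak soon after stimulation, so arrays at 24 h measure the later state.

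Array medians were 6.64 to 6.97 on the log2 scale, and correlations between arrays of a group across the tested genes were 0.97 to 0.995. By group, the medians were 6.73 to 6.81 in KO_CD3CD28 and 6.87 to 6.97 in KO_CD3. They were 6.64 to 6.81 in WT_CD3CD28 and 6.80 to 6.85 in WT_CD3. The number of arrays limits the precision. After group means were removed, 39.6% of the remaining variance lay on 1 principal component, on which replicates 1 and 2 of every group fell opposite to replicates 3 and 4. Under both stimuli, replicates 2 and 4 of the knockout and replicate 1 of the wild type had the X-linked Xist at 10.44 to 11.36, and the other arrays had it at 5.09 to 5.80, and the Y-linked Kdm5d was at 5.69 to 6.15 in those arrays and at 9.62 to 10.12 elsewhere, so both genotypes hold both patterns. Bhlhe40 averaged 5.88 ± 0.14 in KO_CD3CD28 and 9.51 ± 0.71 in WT_CD3CD28, and 5.53 ± 0.32 in KO_CD3 and 7.56 ± 0.42 in WT_CD3 (SD, n = 4 each), or -3.62 (SE 0.27, adjusted p = 3.76e-06 by limma) and -2.03 (SE 0.27, adjusted p = 0.00548, and 0.0969 with replicates 3 and 4 alone). Of the knockout arrays, 1 of 4 in KO_CD3 and 4 of 4 in KO_CD3CD28 had Bhlhe40 above the 25th percentile of the array, so the knockout level under anti-CD3 was near background. The sources used here do not say whether its probe lies in the deleted part. All 10 AP-1 probes exceeded the 25th percentile of their array on all 16 arrays. Their percentiles among all probes ran from 32.6 to 60.1 for Fos and from 72.1 to 79.4 for Jund, and Batf reached 83.1.

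Promoter sequence was available for 9 members, in windows of 250 bases before to 50 after the gene start (RefSeq, GRCm38.p6). One stretch is shown for each of 6 members, to let a reader see a DNA word related to an AP-1, CRE or Dec1 motif in its context. Fosb also holds TGACG, 60 bases before the start, and Fos a second one at 129, which are not shown. They lie before the start, are written on the gene's strand, and the motif is in capitals. Batf is at chr12:85686602-85686646, Jun at chr4:95052240-95052287, Junb at chr8:84978830-84978874, Fos at chr12:85473804-85473848, Atf3 at chr1:191183334-191183363 and Batf3 at chr1:191098164-191098192. Batf, Fos and Batf3 are on the plus strand and the other three on the minus strand.
Batf: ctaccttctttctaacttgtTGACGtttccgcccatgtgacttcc
Jun: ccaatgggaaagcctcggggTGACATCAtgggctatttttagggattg
Junb: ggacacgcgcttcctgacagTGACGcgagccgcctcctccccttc
Fos: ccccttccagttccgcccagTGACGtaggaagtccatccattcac
Atf3: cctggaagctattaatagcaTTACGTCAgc
Batf3: tgcCACGTGacttccacgaagagcggggg

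The words were searched on both strands. TGACG, the first 5 bases of the CRE sequence TGACGTCA, was found in 5 of 9 member windows (Fos, Fosb, Junb, Batf and Atf3) and in 20.81% of all 32851 windows. In Atf3 it lies on the opposite strand within TTACGTCA, which 0.5% of all windows hold. The Jun word TGACATCA begins 45 bases before the start and occurs in 3.62% of all windows. CACGTG, the E-box that Dec1 binds, was found in Batf3 alone among the members, 247 bases before the start, and in 7.15% of all windows. Neither TGACTCA nor TGACGTCA was found in a member window, against 5.2% and 1.79% of all windows. Fos and Batf are neighbours on chromosome 12 with a gap of 209.4 kb that holds 1 other protein-coding gene, Jdp2. Batf3 and Atf3 lie 61.4 kb apart on chromosome 1.

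The first question was what CD28 adds to anti-CD3 within each genotype. Batf, Jun, Junb and Atf3 rose in knockout cells, and no member was called lower there. Fos, at -0.42 in knockout, was called lower with the replicate number as a block (adjusted p = 0.00639 by limma) and with replicates 1 and 2 (0.0287) or 3 and 4 (0.0474) alone. In wild-type cells Batf rose, while Fos, Fosl1 and Fosl2 fell. With the replicate number as a block, Jun (adjusted p = 0.00431 by limma) and Atf3 (0.0306) were called higher there too. Batf had the largest change of the members, 2.02-fold in knockout and 1.66-fold in wild-type cells. Fosb, Jund and Batf3 passed the test in neither genotype. By limma with Benjamini-Hochberg adjustment over all genes, 4 of 10 members were called higher and 0 lower in knockout cells, where 20.4% of genes tested were called higher and 17.6% lower. In wild-type cells 1 of 10 was called higher and 3 lower, against 16% and 13% of genes. The members' shares of calls, 4 of 10 in both, stand beside 38% of all genes called in knockout and 29% in wild type, the first near its background and the second somewhat above it. The median log2 difference over the members was 0.06 in knockout and 0.07 in wild type, against -0.06 and -0.03 over all genes.

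**Figure D1:**
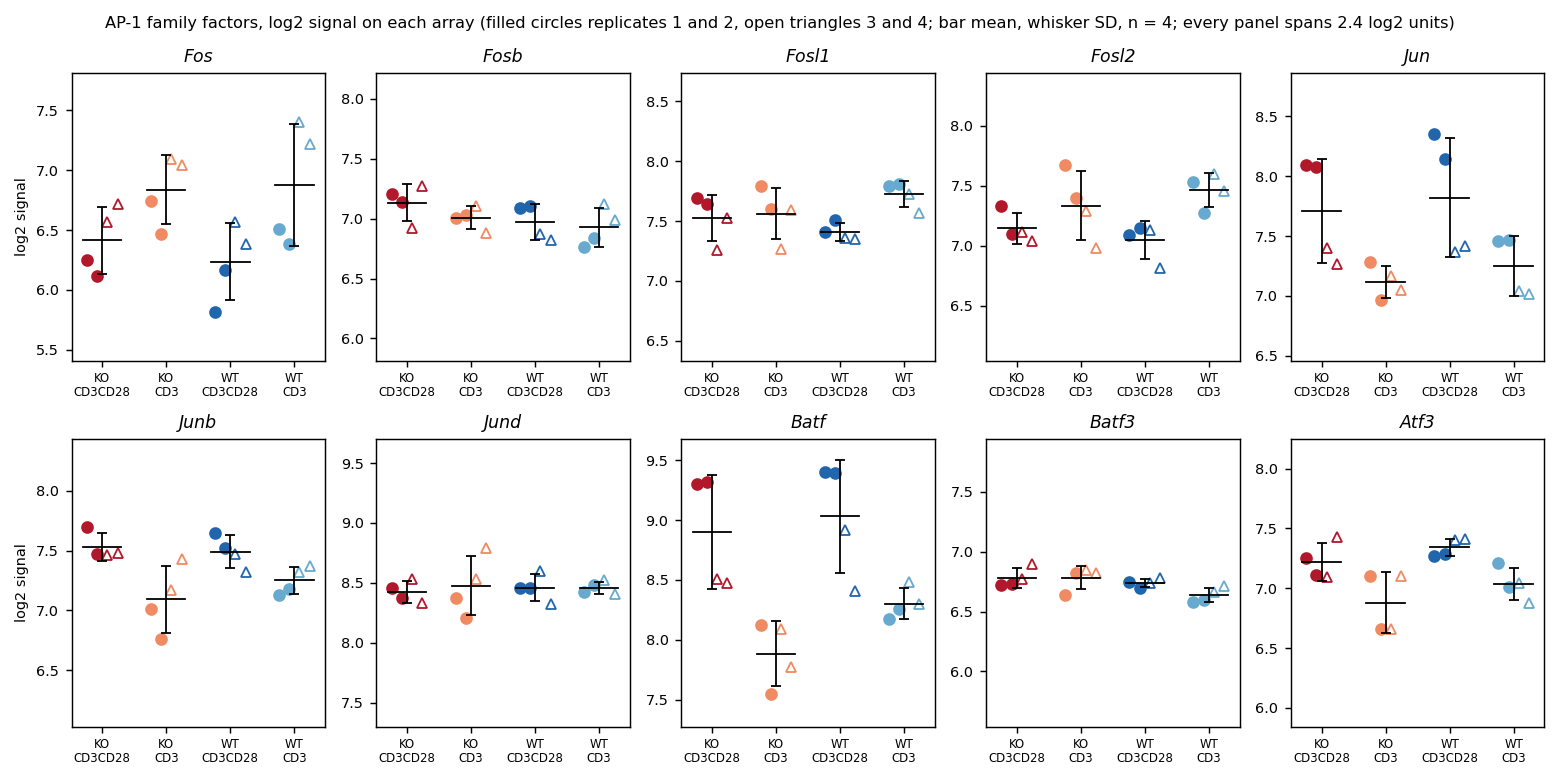
Log2 signal of the 10 AP-1 family factors on each of the 16 arrays, by group; filled circles are replicates 1 and 2, open triangles replicates 3 and 4, lines the group mean and whiskers the SD (n = 4). Batf and Jun are high in replicates 1 and 2 of both groups with anti-CD28, Fos is low in the same groups, and Jund is level.

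**Figure D2:**
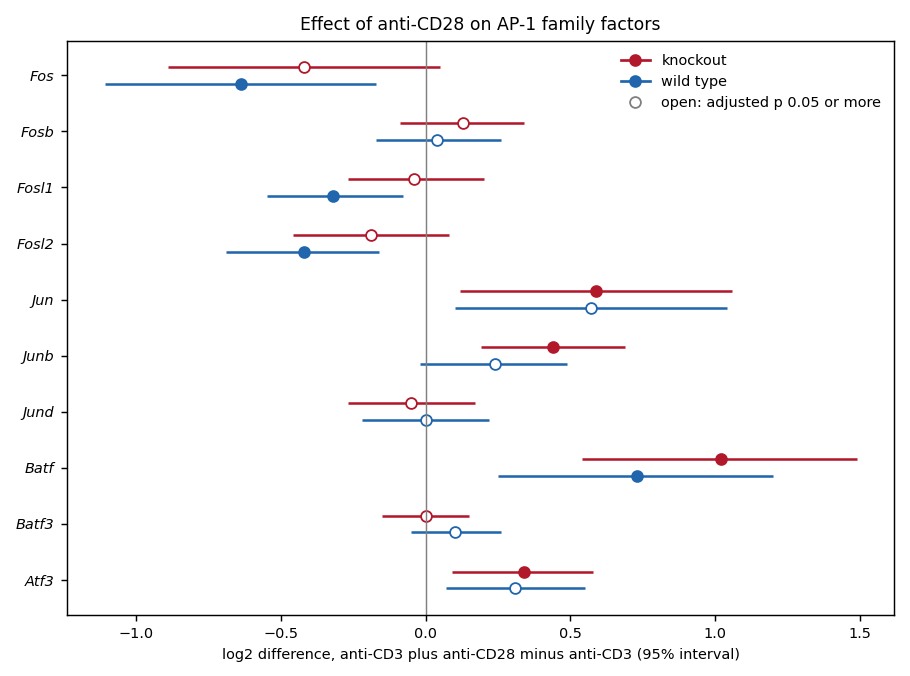
Log2 difference of each member with anti-CD28, in knockout (red, upper) and wild-type cells (blue, lower), with its 95% interval; filled points passed the adjusted p of 0.05 in limma. Batf, Jun, Junb and Atf3 lie right of 0 in both genotypes, and Fos, Fosl1 and Fosl2 left of 0.

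Batf, the partner of JUN proteins at AP-1 and IRF composite sites, was at 9.30, 9.32, 8.51 and 8.47 in KO_CD3CD28 replicates 1 to 4, against 8.12, 7.55, 8.09 and 7.77 in KO_CD3. It was at 9.40, 9.39, 8.92 and 8.41 in WT_CD3CD28, against 8.17, 8.26, 8.48 and 8.30 in WT_CD3. The knockout groups did not overlap, as in 34.9% of genes, while in wild type replicate 4 with anti-CD28 lay under the highest WT_CD3 array. The log2 difference was 1.02 in knockout (SE 0.23, adjusted p = 0.0018 by limma) and 0.73 in wild type (SE 0.23, adjusted p = 0.0215). The wild-type call was lost without WT_CD3CD28 replicate 1 (adjusted p = 0.0812) or 2 (0.0803) or WT_CD3 replicate 1 (0.0569). It held with the replicate number as a block (adjusted p = 0.00843 by limma).

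Jun, the prototype JUN subunit, was at 8.09, 8.08, 7.40 and 7.27 in KO_CD3CD28 and at 7.28, 6.97, 7.17 and 7.05 in KO_CD3. It was at 8.35, 8.14, 7.37 and 7.42 in WT_CD3CD28 and at 7.46, 7.47, 7.04 and 7.02 in WT_CD3. In both genotypes replicates 1 and 2 with anti-CD28 stood well above all arrays without it. Of replicates 3 and 4 only KO_CD3CD28 replicate 3 did so, and narrowly. The difference of 0.59 in knockout (SE 0.22) passed by limma with an adjusted p of 0.0454, and that of 0.57 in wild type (SE 0.22) had an adjusted p of 0.0652, or 0.00431 with the replicate number as a block. The knockout call was lost without any 1 of the KO_CD3 arrays or of KO_CD3CD28 replicates 1 and 2 (adjusted p 0.051 to 0.15), while the wild-type difference passed without WT_CD3CD28 replicate 3 (0.0248) or 4 (0.0285).

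Junb, which in T helper cells pairs with Batf and can replace or oppose Jun, was at 7.70, 7.47, 7.46 and 7.48 in KO_CD3CD28, against 7.01, 6.76, 7.17 and 7.43 in KO_CD3. In wild type it was at 7.65, 7.52, 7.47 and 7.32 with anti-CD28 and at 7.13, 7.18, 7.32 and 7.37 without. The groups lay apart in knockout and overlapped in wild type. The difference was 0.44 in knockout (SE 0.12, adjusted p = 0.0077 by limma) and 0.24 in wild type (SE 0.12, adjusted p = 0.161). Jund, the JUN protein that resting cells already express, did not pass the test. Its levels were 8.33 to 8.53 in KO_CD3CD28 and 8.21 to 8.79 in KO_CD3, and 8.32 to 8.60 in WT_CD3CD28 and 8.41 to 8.52 in WT_CD3. The 95% intervals of its difference were -0.27 to 0.17 in knockout and -0.22 to 0.22 in wild type.

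Atf3 was at 7.25, 7.11, 7.09 and 7.43 in KO_CD3CD28, against 7.10, 6.66, 6.66 and 7.10 in KO_CD3, and at 7.27, 7.29, 7.40 and 7.41 in WT_CD3CD28, against 7.21, 7.01, 7.04 and 6.88 in WT_CD3. The wild-type groups lay apart, while in knockout KO_CD3CD28 replicate 3 lay just under the highest KO_CD3 arrays. By limma the difference was 0.34 in knockout (SE 0.12, adjusted p = 0.0279) and 0.31 in wild type (SE 0.12, adjusted p = 0.0541, while blocking on replicate number gave 0.0306). The knockout call was lost without KO_CD3 replicate 2 or 3 or KO_CD3CD28 replicate 1 or 4 (adjusted p 0.063 to 0.101), and the wild-type difference passed without WT_CD3 replicate 1 (0.0361). Batf3, a BATF protein best known for dendritic cell development, stayed between 6.58 and 6.90 on all 16 arrays. Its 95% interval with anti-CD28 was -0.15 to 0.15 in knockout and -0.05 to 0.26 in wild type. After centring each array on its median, Batf3 (0.19, adjusted p = 0.0459 by limma) and Atf3 (0.40, adjusted p = 0.0161) were both called higher in wild type.

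Of the FOS genes, none was called higher. Fos, the prototype FOS subunit, was at 6.25, 6.12, 6.57 and 6.72 in KO_CD3CD28 and at 6.74, 6.47, 7.09 and 7.04 in KO_CD3. In wild type it was at 5.82, 6.17, 6.57 and 6.38 with anti-CD28 and at 6.51, 6.38, 7.40 and 7.22 without. Both pairs of groups overlapped, yet within each replicate number the array with anti-CD28 was the lower one in 4 of 4 cases in each genotype. By limma the difference was -0.42 in knockout (SE 0.22, adjusted p = 0.15, while blocking on replicate number gave 0.00639) and -0.64 in wild type (SE 0.22, adjusted p = 0.0391). The wild-type call was lost without WT_CD3 replicate 3 or 4 or WT_CD3CD28 replicate 1 or 2 (adjusted p 0.0859 to 0.139).

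Fosl1 and Fosl2 encode the FRA proteins, FOS subunits without a strong activation domain. Fosl1 was at 7.41, 7.51, 7.36 and 7.35 in WT_CD3CD28, below all WT_CD3 arrays at 7.79, 7.81, 7.73 and 7.57. In knockout it was at 7.69, 7.64, 7.26 and 7.53 with anti-CD28 and at 7.79, 7.60, 7.27 and 7.59 without, so that the groups overlapped. Fosl2 was at 7.09, 7.15, 7.13 and 6.81 in WT_CD3CD28 and at 7.53, 7.27, 7.60 and 7.46 in WT_CD3, again apart, as in 30.4% of genes. In knockout Fosl2 was at 7.33, 7.10, 7.11 and 7.04 with anti-CD28 and at 7.67, 7.40, 7.29 and 6.98 without, where KO_CD3 replicate 4 was the lowest array. By limma the wild-type differences were -0.32 for Fosl1 (SE 0.11, adjusted p = 0.0392) and -0.42 for Fosl2 (SE 0.13, adjusted p = 0.0171). The knockout differences were -0.04 (SE 0.11, adjusted p = 0.82) and -0.19 (SE 0.13, adjusted p = 0.246).

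The calls of lower FOS genes depended on single arrays and on the scaling. With the replicate number as a block the 3 wild-type calls held. The adjusted p by limma was then 0.000322 for Fos, 0.00993 for Fosl1 and 0.00374 for Fosl2. Fosl1 was not called in wild type without any 1 of WT_CD3 replicates 1, 2 and 3 and WT_CD3CD28 replicates 1, 3 and 4 (adjusted p 0.0719 to 0.0989). Fosl2 was not called without WT_CD3 replicate 3 (0.0536) or WT_CD3CD28 replicate 4 (0.0547), and passed in knockout without KO_CD3 replicate 4 (-0.31, 0.0467). When each array was centred on its median, the 3 wild-type calls ended, at -0.55 for Fos (adjusted p = 0.0792), -0.23 for Fosl1 (0.177) and -0.33 for Fosl2 (0.0958), and a second quantile normalization ended them too. After centring, the median difference of all genes was 0.071 in knockout and 0.061 in wild type, against -0.063 and -0.03 as deposited. Of all called genes 75% and 69.3% were then higher, against 53.8% and 55.1%. Fosb, a FOS protein induced with Fos, lay at 6.92 to 7.27 in KO_CD3CD28 and 6.88 to 7.11 in KO_CD3, and at 6.82 to 7.11 in WT_CD3CD28 and 6.76 to 7.12 in WT_CD3. Its intervals were -0.09 to 0.34 in knockout and -0.17 to 0.26 in wild type, and with replicates 1 and 2 alone it was called higher in wild type (0.30, adjusted p = 0.0256 by limma).

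The size of the change with anti-CD28 differed between replicates 1 and 2 and replicates 3 and 4. With replicates 1 and 2 alone, Batf differed by 1.48 in knockout and 1.18 in wild type, and with replicates 3 and 4 alone by 0.56 (adjusted p = 0.0569 by limma) and 0.27 (adjusted p = 0.4). Jun differed by 0.96 and 0.78 in replicates 1 and 2 and by 0.22 and 0.36 in replicates 3 and 4. Junb differed by 0.70 and 0.43 in the first set and by 0.17 and 0.05 in the second. Fos went the other way in wild type, at -0.45 in the first set and -0.83 in the second, and was at -0.41 and -0.42 in knockout. Atf3 also differed more in the second set, by 0.38 in knockout and 0.45 in wild type, against 0.30 and 0.17 in the first. Of 10 members, limma called 3 higher in knockout and 4 higher in wild type with replicates 1 and 2 alone, and 0 in both with replicates 3 and 4 alone. Called lower were 1 in knockout and 2 in wild type with either set alone. Calls over all 16427 genes, in either direction, also fell with replicates 3 and 4 alone. They numbered 2896 in knockout and 2650 in wild type, against 6245 and 4770 with all replicates. With replicates 3 and 4 alone the knockout calls of Jun (adjusted p = 0.239 by limma), Junb (0.426) and Atf3 (0.169) and the wild-type call of Fosl1 (0.246) were lost too. With replicates 1 and 2 alone the knockout call of Atf3 (0.103) and the wild-type call of Fosl2 (0.12) were lost. The AP-1 target Il2 moved with this split: it differed by 4.59 in knockout and 4.72 in wild type in replicates 1 and 2, and by 3.27 and 3.32 in replicates 3 and 4. Bhlhe40 differed by 2.23 in wild-type replicates 1 and 2 and by 1.67 in replicates 3 and 4. What set the replicates apart was not tested.

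**Figure D3:**
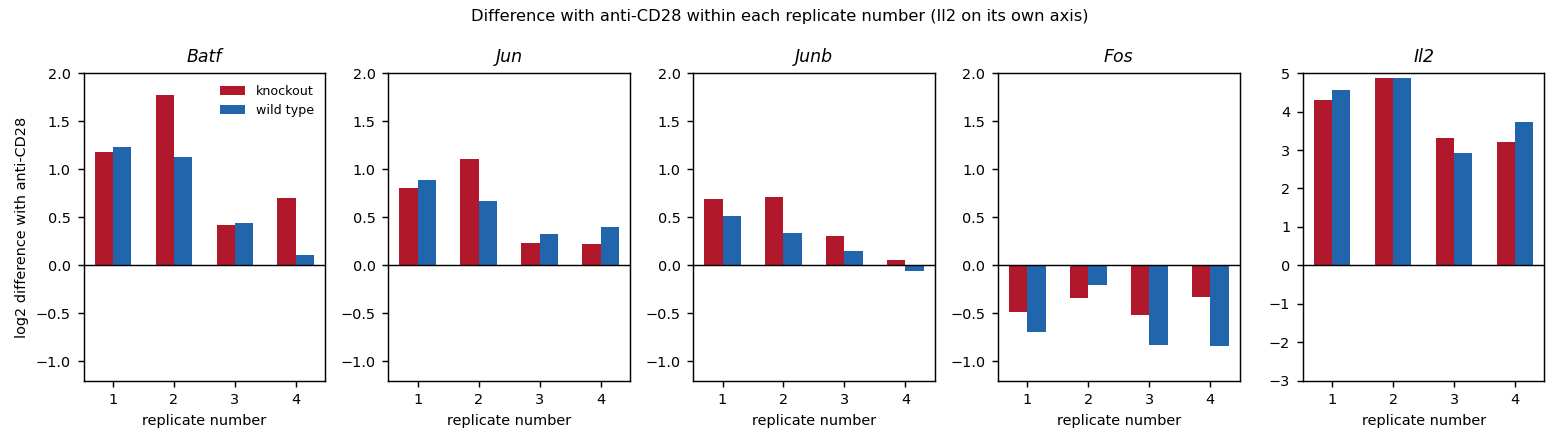
Log2 difference of the array with anti-CD28 from the array of the same replicate number without it, in knockout (red) and wild type (blue), with Il2 on an axis of its own. Bars of Batf, Jun and Il2 are taller in replicates 1 and 2 than in 3 and 4, and those of Fos are below 0 throughout.

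The second question was whether AP-1 genes depend on Dec1. By limma no member was called between knockout and wild-type cells under either stimulus, and at an unadjusted p under 0.05 the count was also 0 of 10 in both. Of all 16427 genes, 545 had such a p with both antibodies and 3987 under anti-CD3. Under anti-CD3 plus anti-CD28 the background was 1 gene, Bhlhe40 itself, or 0.00609% of those tested, and under anti-CD3 it was 1.03%, with 0.749% lower. Genotype groups with both antibodies lay apart for 0 of 10 members and for 2.75% of all genes. With both antibodies the member differences ran from -0.13 for Batf and Atf3 to 0.18 for Fos, with SEs of 0.07 to 0.23. The 95% intervals reached from -0.61 for Batf to 0.65 for Fos, so differences within those bounds are not excluded.

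Under anti-CD3 alone, Batf differed by -0.42 (SE 0.23, 95% interval -0.90 to 0.06, adjusted p = 0.253), and each of the 4 KO_CD3 arrays lay below all WT_CD3 arrays. It was the only member whose genotype groups lay apart, and 14.7% of all genes did so in this comparison. Batf3 differed by 0.14 (SE 0.07, adjusted p = 0.234) and was higher in the knockout array of every replicate number, by 0.06 to 0.21. Differences of the other members ran from -0.16 for Fosl1, Junb and Atf3 to 0.08 for Fosb. The replicate block raised the number of genes called under anti-CD3 to 1954, against 169 without it, but called no member (adjusted p = 0.146 for Batf and 0.152 for Batf3).

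**Figure D4:**
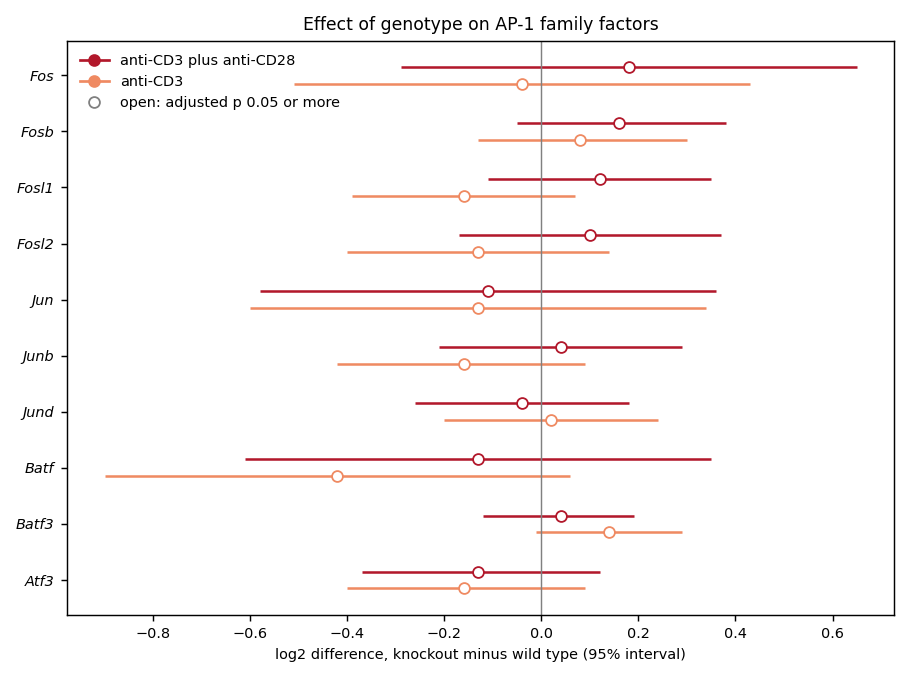
Log2 difference of knockout minus wild type for each member under anti-CD3 plus anti-CD28 (red, upper) and anti-CD3 (orange, lower), with 95% intervals; no point is filled because none passed the adjusted p of 0.05. All intervals contain 0, and that of Batf under anti-CD3 reaches from -0.90 to 0.06.

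The change with anti-CD28 was then compared between genotypes by the interaction term, which is the effect in knockout minus that in wild type. No member passed, and of all genes 0 did (0%), with 867 at an unadjusted p under 0.05. The interaction was 0.28 for Fosl1 (SE 0.16, 95% interval -0.05 to 0.61, adjusted p = 0.905 by limma), 0.23 for Fosl2 (SE 0.18), 0.22 for Fos (SE 0.32) and 0.20 for Junb (SE 0.17). The calls of FOS genes in wild type and of Jun, Junb and Atf3 in knockout are thus not shown to differ between genotypes. Each member called in one genotype had the same sign in the other.

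Within groups, members varied in their own combinations. Pearson correlations of the deviations from group means over the 16 arrays are given as a description, since arrays share replicate numbers and the split of replicates. Of 45 pairs, 6 were above 0.5 and 5 below -0.5, with a median of 0.14. Jun went with Batf (0.79) and Junb with Jund (0.78). Fos ran against Jun (-0.73), and Batf3 against Fosl1 (-0.62) and Jun (-0.59). In every group Fos was higher in replicates 3 and 4, by 0.46 to 0.86. The same difference for Jun was -0.75 in KO_CD3CD28, -0.01 in KO_CD3, -0.85 in WT_CD3CD28 and -0.44 in WT_CD3. Batf was lower in replicates 3 and 4 with anti-CD28 (-0.82 in knockout and -0.73 in wild type) but not without it (0.10 and 0.18).

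**Figure D5:**
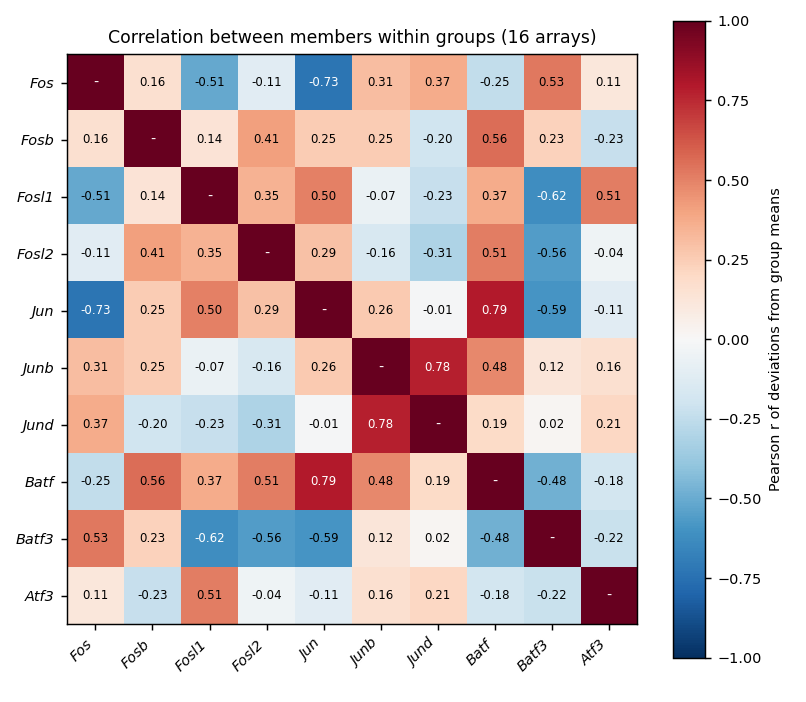
Pearson r between members of their deviations from group means over 16 arrays, from -1 (blue) to 1 (red). The strongest pairs are Jun with Batf at 0.79, Junb with Jund at 0.78 and Fos against Jun at -0.73.

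Over all 16 arrays, group differences included, the genes most like Batf were Zwint and Mrps27 (Pearson r 0.974 each), and those most like Jun were Il15ra (0.968) and the chemokine gene Ccl3 (0.964). Fos was most like Zxdc (0.957) and Acyp1 (0.941), and Junb most like Fdxacb1 (0.946) and Cep44 (0.941). Fosl2 was most like LTO1 (0.962) and Cc2d1a (0.927), and Batf3 most like Slc40a1 (0.922) and Arhgap23 (0.891). For Atf3, Jund, Fosl1 and Fosb the highest value was lower, between 0.757 and 0.834. The member closest to Jun was Batf, at 0.884, and for Fos the closest was Fosl2, at only 0.396.

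The gene lists that follow are read against all genes tested, of which 20.4% were called higher and 17.6% lower with anti-CD28 in knockout, and 16% higher and 13% lower in wild type. Where a listed gene is given for a single genotype, it was not among the 4 smallest p of its list in the other. It may still have been called there, and no gene passed the interaction. The pathway that feeds AP-1 had calls in both directions. Of 34 genes listed for the route from Ras and protein kinase C through the MAP kinases, 25 were tested, and with anti-CD28 6 were called higher and 9 lower in each genotype. The protein kinase C gene Prkca rose by 1.45 in knockout (SE 0.13) and 0.94 in wild type (SE 0.13), and Map3k8, a kinase upstream of ERK, by 0.71 and 0.66 (SE 0.11 each). Elk3, an ETS factor that binds with SRF at the Fos promoter, fell by 0.64 in knockout and 0.89 in wild type (SE 0.10 each). The JNK pathway kinase Map3k1 fell by 0.94 in wild type (SE 0.13) and the p38 kinase kinase Map2k6 by 0.64 in knockout (SE 0.09). The median of the list was 0.04 in knockout and -0.10 in wild type. Between genotypes under anti-CD3, 1 of 25 was called, Prkca at -0.66 (SE 0.13, adjusted p = 0.0317 by limma), with 9.09 in KO_CD3 and 9.75 in WT_CD3. That call was lost without KO_CD3 replicate 1 or 2 or WT_CD3 replicate 1, 2 or 3 (adjusted p 0.0551 to 0.13), and with replicates 3 and 4 alone (-0.45, adjusted p = 0.224).

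Among 26 tested bZIP genes outside the family, 4 were higher and 6 lower with anti-CD28 in knockout, and 1 higher and 5 lower in wild type. That is 10 of 26 in knockout, beside 38% of all genes, and 6 of 26 in wild type, beside 29%, so the list as a whole was near or below the background. Bach1 and Bach2, repressors that compete with AP-1 at related sites, fell. Bach1 was lower by -1.14 in knockout and -1.06 in wild type (SE 0.12 each), and Bach2 by -0.65 and -0.86 (SE 0.15 each). Ddit3, a stress factor that dimerizes with CEBP proteins, fell by 0.39 and 0.45 (SE 0.09 each), though its knockout call ended with arrays centred on the median (-0.26, adjusted p = 0.053 by limma). Nfil3, a bZIP repressor, rose by 0.51 and 0.41 (SE 0.10 each), and with replicates 3 and 4 alone by 0.38 in knockout, where it was not called (adjusted p = 0.0636). No gene of this list was called between genotypes.

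Of 11 genes for factors that bind with AP-1, 4 were higher and 3 lower in knockout and 4 higher and 2 lower in wild type, or 7 and 6 of 11 beside 38% and 29% of all genes. Irf8, which binds with BATF and JUN dimers, rose by 1.48 in knockout (SE 0.28) and 1.86 in wild type (SE 0.28), and the NF-kB subunit Rel by 0.63 and 0.57 (SE 0.09 each). Cops5, a JUN-binding subunit of the COP9 signalosome, rose by 0.74 in knockout (SE 0.12). Ets1 fell by 1.03 in knockout and 0.96 in wild type (SE 0.20 each), and Nfatc1, an NFAT partner of AP-1, fell by 0.80 in wild type (SE 0.16). Under anti-CD3, Irf4, the partner of BATF, differed by -0.58 between genotypes (SE 0.16) and did not pass (adjusted p = 0.0775 by limma).

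Of 24 tested AP-1 targets of T cells, 11 were higher and 3 lower with anti-CD28 in knockout, and 10 higher and 2 lower in wild type, with medians of 0.60 and 0.21, against -0.06 and -0.03 over all genes. Of all called genes, 53.8% were higher in knockout and 55.1% in wild type. Lif, a cytokine of the IL-6 family, rose by 2.68 in knockout and 2.59 in wild type (SE 0.20 each). Il2, the growth factor gene with composite NFAT and AP-1 sites, rose by 3.93 in knockout and 4.02 in wild type (SE 0.37 each). The IL-2 receptor chain Il2ra rose by 1.49 in knockout and 0.92 in wild type (SE 0.19 each). The inhibitory receptor Ctla4 rose by 1.48 in knockout (SE 0.22), and its interaction of 0.85 did not pass (SE 0.31, adjusted p = 0.905 by limma). The adhesion receptor Cd44 and the filament protein Vim rose by 1.39 (SE 0.27) and 1.45 (SE 0.29) in wild type. Between genotypes under anti-CD3, 1 of 24 was called: Ccnd2, a G1 cyclin, was at 10.53 in KO_CD3 and 11.20 in WT_CD3 (-0.67, SE 0.13, adjusted p = 0.0236 by limma). It was not called without KO_CD3 replicate 2 (0.0871) or WT_CD3 replicate 1 (0.0584) or 3 (0.11), or with replicates 3 and 4 alone (-0.71, adjusted p = 0.199).

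Of 11 tested targets of BATF and IRF4, 4 were higher and 3 lower in knockout, and 3 higher and 3 lower in wild type, or 7 and 6 of 11 beside 38% and 29% of all genes. Bcl6, the follicular helper factor, fell by 1.83 and 1.88 (SE 0.17 each). The IL-12 receptor chain Il12rb2 rose by 1.36 in wild type (SE 0.24), and Gzmb, the cytotoxic protease granzyme B, by 3.10 in knockout and 2.30 in wild type (SE 0.48 each). Of the arrays without anti-CD28, 2 of 4 in KO_CD3 and 3 of 4 in WT_CD3 had Gzmb above the 25th percentile. Prdm1, the gene of the repressor Blimp-1, fell by 0.53 in knockout and 0.34 in wild type (SE 0.10 each), but only 1 of 4 KO_CD3CD28 and 0 of 4 WT_CD3CD28 arrays had it above that percentile, and the wild-type call ended after centring (-0.24, adjusted p = 0.0935 by limma).

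Of 26 other immediate early genes, 6 were higher and 8 lower with anti-CD28 in knockout, and 4 higher and 9 lower in wild type, with medians of -0.12 and -0.17. The higher calls were near the 20.4% and 16% of all genes. Egr2, an early target of NFAT, fell by 1.10 in wild type (SE 0.18), Btg2 by 1.35 in wild type (SE 0.24) and the quiescence factor Klf2 by 1.30 in knockout and 1.15 in wild type (SE 0.14 each). Myc rose by 1.10 in knockout (SE 0.13). Under anti-CD3 Myc was lower in knockout, at 10.65 against 11.25 in WT_CD3 (-0.60, SE 0.13, adjusted p = 0.0421 by limma). That call was lost on leaving out any 1 of 7 of the 8 arrays, WT_CD3 replicate 4 being the exception (adjusted p 0.052 to 0.141), and after a second quantile normalization (-0.50, adjusted p = 0.109) and with replicates 3 and 4 alone (-0.63, adjusted p = 0.199).

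Markers of T cells and of other cells also moved with anti-CD28. In these bulk samples, fewer cells of a type and less RNA per cell cannot be told apart. Of 9 tested T cell identity genes, 5 were lower in knockout and 6 in wild type. Their summed linear signal was 19171 to 21849 in KO_CD3CD28 and 26608 to 30665 in KO_CD3, and 17816 to 24761 in WT_CD3CD28 and 28592 to 33521 in WT_CD3. Cd3d and Cd3e, the defining T cell genes, were at percentiles of 92.6 to 98.4 and 95.1 to 98.5 on the 16 arrays. Of 15 B cell markers, 8 were lower in knockout and 7 in wild type, and of 19 myeloid and dendritic cell markers, which include Batf3, 9 and 8 were lower. The summed linear signal of the 17 B cell probes was 1331 to 1461 in KO_CD3CD28 and 1561 to 2384 in KO_CD3, and 1274 to 1442 in WT_CD3CD28 and 1700 to 2089 in WT_CD3. The sum of the 22 myeloid probes was 4776 to 5140 in KO_CD3CD28 and 5322 to 7140 in KO_CD3, and 4629 to 5068 in WT_CD3CD28 and 5762 to 6477 in WT_CD3. On all 16 arrays 8 of the B cell probes, Cd79a, Cd22 and Ebf1 among them, and 14 of the myeloid probes, Csf1r, Itgam and Xcr1 among them, stayed below the array median. Other B cell markers did not: Cd79b was at percentiles of 50.5 to 62, H2-Eb1 at 53 to 63.4 and H2-Aa at 37.8 to 82.9. Other myeloid markers were high: Ctss was at percentiles of 94.9 to 98, Cst3 at 77.9 to 88 and Cd68 at 57.5 to 74. Lyz2 varied widely, from 17.2 to 74.6. The list of CD8 and NK cell markers had 4 of 8 higher and 3 lower in both genotypes. Its 14 probes summed to 3238 to 3465 in KO_CD3CD28 and 3592 to 4294 in KO_CD3, and to 3048 to 3180 in WT_CD3CD28 and 3474 to 3877 in WT_CD3. Of these probes 7, Ncr1, Klrb1c and Gzma among them, stayed below the array median on all arrays. Others were high, with Cst7 at percentiles of 85.7 to 93.8 and Cd8b1 at 75.4 to 87.2. Klrd1, an NK cell receptor chain, ranged from 27.6 to 94.3, and its difference with anti-CD28 was -3.71 in knockout and -3.43 in wild type (SE 0.25 each). Regulatory T cell markers were higher for 6 of 12 in knockout and for 3 of 12 in wild type, where 2 were lower. Their 12 probes summed to 12826 to 13828 in KO_CD3CD28 and 5734 to 8129 in KO_CD3, and to 11812 to 16119 in WT_CD3CD28 and 8990 to 12232 in WT_CD3. This list holds Il2ra and Ctla4, also named among the AP-1 targets, at percentiles of 90.7 to 98.5 and 84.3 to 97. Foxp3 was at 64.7 to 79.9. The part of other cells in the AP-1 differences was not tested.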

How the data were processed

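The authors deposited log2 signals made with RMA, per the submitters' processing notes, which corrects background, normalizes quantiles and summarizes probe sets; its version and the genome build are not given in the sources used here. Values for 35556 probes on 16 arrays ran between 1.84 and 13.99, and 0 were absent. A supplied probe table gives 1 symbol to 21789 probes, several to 1621 and none to 12146. Gene ids matched 21698 of the single-symbol probes to RefSeq genes (GRCm38.p6) and changed 0 symbols.

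Probes above the 25th percentile of an array on at least 4 arrays were kept (17930), and the brightest probe stood for a gene, leaving 16427 genes. Group means over all 16 arrays were compared with limma 3.58.1 in R 4.3.3 (12 residual and 4.92 prior degrees of freedom) and Benjamini-Hochberg adjustment over all genes, at 0.05. Summaries and figures used Python 3.11.15, pandas 2.3.3, numpy 2.4.6 and matplotlib 3.10.9. The script was tested on simulated data with known changes.

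Members and lists were chosen with earlier results of these data known. Named are the 10 members, Bhlhe40, the genes with the smallest p in each list (up to 4 a comparison) and the 2 genes most like a member. Il2 was added for the replicate split after its values were seen. Like-numbered arrays deviated together (correlations 0.22 to 0.51 for the CD28 effect in knockout, 0.16 to 0.37 in wild type, 0.2 to 0.59 between genotypes with both antibodies and 0.18 to 0.45 under anti-CD3), so the replicate number was also fitted as a block. Other alternatives covered scaling, filters, probe choice, variance model, array weights, replicate sets, the groups fitted and each array left out.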

Additional observations from a re-analysis of the deposited data

Results flagged for a closer look

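In 44 groups of 4 arrays (10 members and Bhlhe40), 2 arrays stood far from their group by Dixon's ratio at its 95% level, and chance alone marks about 1 group in 20. Junb in KO_CD3CD28 replicate 1 was at 7.70, above 7.46 to 7.48 in the other three (ratio 0.946). Without it the change with anti-CD28 in knockout was still called. Batf3 in KO_CD3 replicate 1 was at 6.64, below 6.82 to 6.85 in the others (ratio 0.856).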

How the results depend on the processing

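Of 1015 alternative values of member differences, 885 kept their direction and side of the threshold, 21 became called, 43 lost a call and 66 changed sign, of which 0 were called in either setting. The causes were not tested. Called higher in wild type were 3 members after centring, a second quantile normalization, array weights or the replicate block, 2 with the stricter filter, trended variance or only the 2 groups compared, 4 with replicates 1 and 2 alone and 0 with replicates 3 and 4 alone, against 1. Called lower in wild type were 0 after centring or renormalization, and 2 members in all were called there with replicates 3 and 4. Of all 16427 genes, 3241 were called higher and 1438 lower in wild type after centring, and 2648 and 1995 after renormalization. With the block they were 3090 and 2710, against 2630 and 2140 in the main fit. In knockout 1 member was called lower with the block or either replicate set, and 1 in all, 0 of them higher, with replicates 3 and 4. With replicates 3 and 4 alone 2896 genes were called with anti-CD28 in knockout and 2650 in wild type, against 6245 and 4770. Between genotypes under anti-CD3, 169 genes were called, against 261 centred, 597 with array weights, 1954 with the replicate block, 1388 with replicates 1 and 2, 0 with replicates 3 and 4 and 5 with only 2 groups. Replicates 1 and 2 alone gave 2 genes between genotypes with both antibodies and 80 in the interaction.

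Sign changes, none called, were as follows. After centring, the change with anti-CD28 in knockout was 0.10 for Fosl1, 0.08 for Jund and 0.13 for Batf3, the genotype difference with both antibodies -0.01 for Junb and Batf3, and under anti-CD3 -0.01 for Fosb and -0.07 for Jund. After renormalization it was 0.04 for Fosl1 and 0.14 for Batf3 in knockout, -0.01 for Batf3 and 0 for Fosb between genotypes. Array weights gave -0.05 for Jund under anti-CD3 and interactions of -0.05 for Jun and 0 for Atf3. Replicates 3 and 4 alone gave -0.21 for Fosb and -0.01 for Jund in wild type, -0.06 for Fosb and 0.08 for Jun under anti-CD3, and interactions of -0.14 for Jun and -0.07 for Atf3. Replicates 1 and 2 alone gave 0.13 for Jund in knockout, 0.16 for Fos, 0.13 for Fosl2 and -0.16 for Jund under anti-CD3, and interactions of -0.15 for Fosb, -0.04 for Fosl2 and 0.11 for Jund.

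Leaving out 1 array gave 2 to 4 members called with anti-CD28 in knockout (2 to 4 higher, 0 to 1 lower) and 1 to 4 in wild type (0 to 2 higher, 0 to 2 lower), and 7 (without WT_CD3 replicate 3) to 452 (without KO_CD3 replicate 3) genes between genotypes under anti-CD3. Differences with a sign change ran from -0.13 to 0.05 for Fosl1, -0.14 to 0.05 for Jund and -0.05 to 0.02 for Batf3 in knockout, and -0.01 to 0.11 for Fosb and -0.04 to 0.05 for Jund in wild type. Under anti-CD3 they ran from -0.21 to 0.13 for Fos and -0.09 to 0.11 for Jund, and with both antibodies from -0.26 to 0.07 for Jun, -0.02 to 0.09 for Junb, -0.09 to 0.01 for Jund, -0.34 to 0.01 for Batf and 0 to 0.05 for Batf3. Interactions ran from -0.13 to 0.20 for Jun, -0.14 to 0.05 for Jund and -0.04 to 0.10 for Atf3. The stricter filter dropped Batf3, and the interaction had no fit of 2 groups.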
